A study of Danio rerio with 9 samples.

Results

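Skeletal muscle sarcomere genes were followed in whole zebrafish larvae exposed to perfluorononanoic acid (PFNA), a long-chain perfluoroalkyl acid. The genes were taken by symbol from both deposited tables, as every gene whose name begins with myhz, smyhc, mylpf, mylz, acta1, actn, neb, ttn or mybpc, with myl or tpm followed by a digit, or with tnnc, tnni or tnnt. The heart genes myl7 and tnnt2a were left out. This gave 62 gene IDs of the 19852 genes in either table, and all 62 were present in both tables. By symbol, 22 were forms of fast fibres, 9 forms of slow fibres, 10 forms used by slow fibres or heart, and 7 forms shared by striated fibres. A further 9 were non-muscle forms that carry the same family names, and 5 (myl10, myl13, tnni4a, tnni4b.1 and tnni4b.2) were left without a fibre class. The rule used no measured value. A symbol stood for more than 1 gene ID in 2 cases. These were myhz1.1 (ENSDARG00000067990 and ENSDARG00000102414, the second named myhz1.1l in a newer name table) and smyhc2 (ENSDARG00000099115 and ENSDARG00000103969). Each ID was kept as a gene of its own.

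The sarcomere is the repeating contractile unit of striated muscle. Thick filaments of myosin heavy and light chains pull on thin filaments of actin, tropomyosin and troponin, while alpha-actinin anchors the thin filaments at the Z-disc. Titin spans from the Z-disc to the middle of the sarcomere as a molecular spring, and nebulin runs along the thin filament. Zebrafish larvae carry most of their trunk muscle as fast fibres, with a thin superficial layer of slow fibres, and both fibre types use their own myosins, troponins and myosin-binding proteins.

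The 9 libraries came from larvae of an AB × Tübingen colony. Per the study's methods, they were placed in the beakers as fertilized embryos and exposed for 7 days. The groups received 0.1% DMSO alone, 0.1 µg/L PFNA or 10 µg/L PFNA, and both PFNA groups carried the same solvent. The 14 to 15 larvae of a beaker were pooled into 1 library, and each group had 3 beakers. Reads recovered on genes ranged from 14491289 to 23963715 per library. Values are given as normalized counts, that is, reads divided by a size factor, with all 9 libraries scaled together, and each fold change comes from the fit of its own comparison. Every one of the 62 genes passed the minimum mean of 10 normalized counts in each comparison, and the lowest count behind any of them was 5 reads, for tnni4b.1.

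Libraries differed within groups before any comparison. On component 1 of a principal component analysis of all genes, which held 51.4% of the variance, the DMSO libraries scored -49.2, -31.1 and 41.9, the 0.1 µg/L libraries -68.7, 19.4 and -48.0, and the 10 µg/L libraries 44.7, 51.4 and 39.5. Thus DMSO replicate 3 and 0.1 µg/L replicate 2 stood with the 10 µg/L libraries. Skeletal muscle markers outside the rule, such as the muscle creatine kinases and parvalbumins, were all detected in every library. Their summed normalized counts were 1082870, 704400 and 823002 in DMSO, 720547, 868429 and 729054 at 0.1 µg/L and 875561, 681094 and 642805 at 10 µg/L. Because whole larvae were sequenced, fewer muscle cells and less of a transcript per muscle cell cannot be told apart.

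Sarcomere genes made up 6.35, 5.98 and 5.69% of all normalized counts in the DMSO libraries, 4.99, 6.22 and 5.54% at 0.1 µg/L and 7.04, 6.10 and 6.60% at 10 µg/L, with each set in the order of the replicates. The highest share was thus in 10 µg/L replicate 1 and the lowest in 0.1 µg/L replicate 1, and the shares of the 3 groups overlapped. Fast forms carried most of it. The ratio of summed fast to summed slow forms was 58.4, 54.7 and 45.4 in DMSO, 54.0, 48.6 and 56.0 at 0.1 µg/L and 51.5, 48.0 and 42.9 at 10 µg/L. All 3 groups overlapped in this ratio too. The highest values of many of the 62 genes fell in the same libraries. DMSO replicate 1 was the highest of the 9 libraries for 20 genes and 10 µg/L replicate 1 for 21, whereas 0.1 µg/L replicate 1 was the lowest for 14. DMSO replicate 1 also had the fewest reads, and the highest sum of normalized counts in both deposited tables. The same counts of highest and lowest libraries were not taken over all genes.

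**Figure D1:**
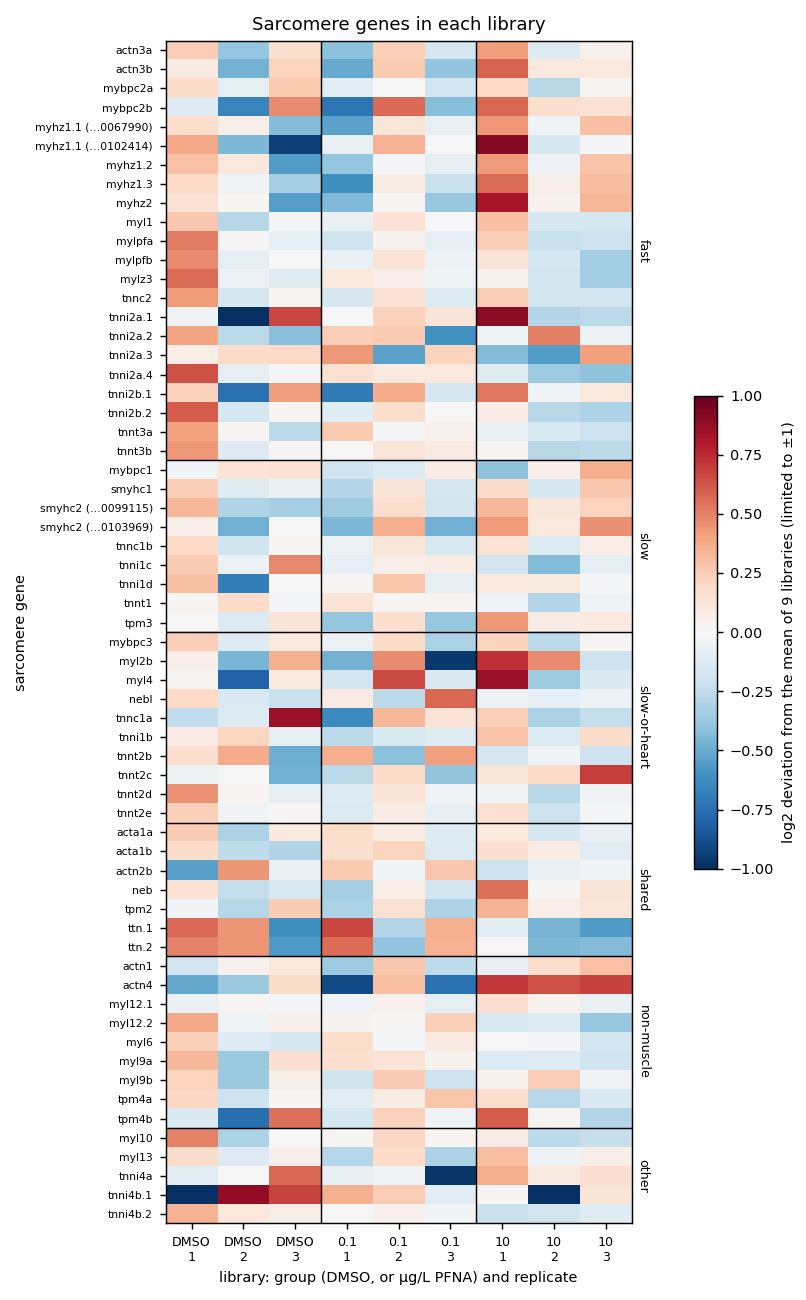
Each row is 1 of the 62 sarcomere genes and each column 1 library, ordered by group and replicate. Colour gives the log2 deviation of the normalized count from the gene's mean over the 9 libraries, limited to 1 in either direction, and black lines separate groups and gene classes. DMSO replicate 1 and 10 µg/L replicate 1 are the highest columns for 20 and 21 genes, while ttn.1 and ttn.2 are blue in DMSO replicate 3, 0.1 µg/L replicate 2 and 10 µg/L replicates 2 and 3.

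At 0.1 µg/L, no sarcomere gene was called different from DMSO. None of the 62 genes reached an unadjusted p under 0.05 by limma, beside 1.57% of the 19065 genes tested (0.755% higher and 0.813% lower). None did by DESeq2, beside 1.40% of all genes, or by edgeR, beside 1.63%. No gene passed adjustment with any of the 3 tools. The median log2 fold change of the 62 genes was -0.07, beside 0.00 over all genes tested, and 20 genes were higher and 42 lower. The largest fitted differences were 0.43 for myhz1.1 (ENSDARG00000102414), a fast myosin heavy chain, and -0.51 for tnni4a, a troponin I by name. The libraries of both groups were fully separated for 2 genes, tnni1b and tnni4b.2, both lower, beside 6.63% of all genes tested. Without DMSO replicate 3 and 0.1 µg/L replicate 2, the count at an unadjusted p under 0.05 was 1, for the fast troponin I gene tnni2a.1, with a log2 fold change of 0.75. It was also 1 without DMSO replicate 3 alone (tnni2a.1, 0.80) and 1 without DMSO replicate 1 (myhz1.1, ENSDARG00000102414, 0.78). Both genes were named after their values were seen. Of the 19065 genes tested, 595, 223 and 853 reached an unadjusted p under 0.05 by limma in these settings, in that order.

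The genes with the most counts in each class show how close both groups lay. Among fast forms, mylz3, a fast myosin light chain, averaged 171671 ± 8905 normalized counts at 0.1 µg/L and 186921 ± 51756 in DMSO (SD, n = 3 each). For mylpfa, the fast regulatory light chain, the averages were 153556 ± 12769.6 at 0.1 µg/L and 182428 ± 42382 in DMSO. The fast troponin T gene tnnt3b had 108383 ± 4544 at 0.1 µg/L and 112557 ± 23543 in DMSO, so the 3 genes differed by less than 1 SD of the DMSO libraries. Among slow forms, the main slow myosin heavy chain smyhc1 averaged 8877 ± 1360.0 at 0.1 µg/L and 9698 ± 1364 in DMSO. The slow troponin C gene tnnc1b averaged 2064 ± 206 at 0.1 µg/L and 2127 ± 289.8 in DMSO. Skeletal actin acta1b was at 9047 ± 1143 normalized counts at 0.1 µg/L and 7896 ± 1531 in DMSO, again within the spread between libraries.

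At 10 µg/L, 5 of the 62 genes (8.06%) differed from DMSO at an unadjusted p under 0.05 by limma, beside 13.1% of the 19610 genes tested. Of the 5, 2 were higher (actn4 and smyhc2, ENSDARG00000103969) and 3 lower (tnni4b.2, tnni1c and myl12.2), beside 7.91% of all genes higher and 5.21% lower. With the non-muscle forms left out, 3 of 53 genes (5.66%) were called. No sarcomere gene passed adjustment by limma, by edgeR (5 at an unadjusted p under 0.05, beside 12.8% of all genes) or by DESeq2 (6, beside 12.3%). With DESeq2, 1.72% of the 15523 genes that it adjusted passed. The median log2 fold change of the 62 genes was -0.00, beside 0.01 over all genes, with 31 higher and 31 lower. Among fast forms 11 were higher, 11 lower and none reached an unadjusted p under 0.05. With quantile normalization, which gives all libraries the same distribution of values, the count became 14, with 13 higher and 1 lower, in place of 2 higher and 3 lower, and 3 genes were called both ways. Of the 19610 genes tested, 2764 had an unadjusted p under 0.05 by limma with quantile normalization, beside 2572 without it. The count of sarcomere genes was 9 without DMSO replicate 3, beside 5269 of all genes tested. It was 1 without 10 µg/L replicate 1 (1807 of all genes), 2 without replicate 2 (1301) and 1 without replicate 3 (1745).

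The largest difference belonged to a non-muscle form. The gene actn4 encodes alpha-actinin-4, which crosslinks actin outside the sarcomere, and had 196, 187 and 193 normalized counts at 10 µg/L, against 83.4, 91.9 and 136 in DMSO. All 3 exposed libraries lay above all 3 DMSO libraries, and DMSO replicate 3 was the highest of the controls. Its log2 fold change was 0.90 ± 0.22 SE (unadjusted p = 0.00218 and adjusted p = 0.242 by limma), and DESeq2 gave an adjusted p of 0.0555. Without DMSO replicate 3, 2186 of the 19610 genes tested passed adjustment by limma, beside 0 with all libraries. In that setting the log2 fold change of actn4 was 1.11, with an adjusted p of 0.00591 by limma. When a covariate for the first sequencing index was added, which leaves DMSO replicate 3 as the only control sharing its index with the exposed libraries, it was 0.49 (unadjusted p = 0.0586 by limma). The sarcomeric alpha-actinins had smaller differences, 0.09 for actn3a, 0.31 for actn3b and -0.06 for actn2b, none at an unadjusted p under 0.05.

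Among slow forms, smyhc2 (ENSDARG00000103969), a slow myosin heavy chain, had 481, 386 and 492 normalized counts at 10 µg/L, against 373, 257 and 357 in DMSO. The groups did not overlap, but 10 µg/L replicate 2 lay close above DMSO replicate 1. The log2 fold change was 0.46 ± 0.19 SE (unadjusted p = 0.0371 and adjusted p = 0.355 by limma). This call was lost without 10 µg/L replicate 1, 10 µg/L replicate 3 or DMSO replicate 2. With the first index as covariate, and so with DMSO replicate 3 as the control, the value was 0.33. Under the other ID of this symbol, ENSDARG00000099115, the counts were 2201, 1900.1 and 2040.1 at 10 µg/L and 2208, 1421 and 1392 in DMSO. Here DMSO replicate 1 was the highest of the 6 libraries, and the groups overlapped. With all libraries this ID was not called. It was called with quantile normalization (0.41, unadjusted p = 0.0258 by limma) and without DMSO replicate 1 (0.53, unadjusted p = 0.00473 by limma). In these settings 2764 and 1799 of 19610 genes were called, in that order. With the first index as covariate its value was 0.55. Only unique reads were counted, no sequences were compared here, and the values of IDs that share a symbol are uncertain to the extent that their transcripts share sequence.

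In the same class, tnni1c, a slow-type troponin I, had 157, 131 and 166 normalized counts at 10 µg/L, against 212, 171 and 249 in DMSO. All exposed libraries lay below all DMSO libraries, by a log2 fold change of -0.48 ± 0.20 SE (unadjusted p = 0.0418, adjusted p = 0.366 by limma). The troponin I gene tnni4b.2 had 1794, 1515 and 1466 in DMSO, 1416, 1455 and 1380.5 at 0.1 µg/L and 1206, 1241 and 1298 at 10 µg/L. In this gene the 3 groups were fully separated, with 10 µg/L lowest and DMSO highest, although 0.1 µg/L replicate 2 and DMSO replicate 3 almost touched. Its log2 fold change was -0.36 ± 0.14 SE at 10 µg/L (unadjusted p = 0.0315) and -0.16 ± 0.14 SE at 0.1 µg/L (unadjusted p = 0.294, both by limma). For myl12.2, a regulatory light chain of non-muscle myosin, the counts were 813, 825 and 695 at 10 µg/L, against 1176, 879.5 and 939 in DMSO. Here too all exposed libraries were below the DMSO libraries, with a log2 fold change of -0.36 ± 0.16 SE (unadjusted p = 0.0474 by limma). Its close relative myl12.1 did not follow, at 2980.3 ± 244 in exposed and 2842 ± 91.8 in DMSO larvae (SD, n = 3 each). The call of myl12.2 was lost with DESeq2 (unadjusted p = 0.0566) and with quantile normalization (0.0658 by limma). That of tnni1c was lost with DESeq2 (unadjusted p = 0.0505), and that of tnni4b.2 with quantile normalization (0.0527 by limma). Each was lost without DMSO replicate 1 and without any single 10 µg/L library, and tnni1c also without DMSO replicate 3. When the first index was added as covariate, DMSO replicate 3 was in effect the control. The log2 fold changes were then -0.28 for myl12.2, -0.24 for tnni4b.2 and -0.73 for tnni1c.

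In all, the libraries of the 10 µg/L and DMSO groups did not overlap for 8 of the 62 genes (12.9%), beside 18.0% of all genes tested. Higher were actn4, smyhc2 (ENSDARG00000103969) and tnnt2c, a heart-type troponin T, and lower were tnni2a.4, tnni1c, tnnt1, tnni4b.2 and myl12.2.

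**Figure D2:**
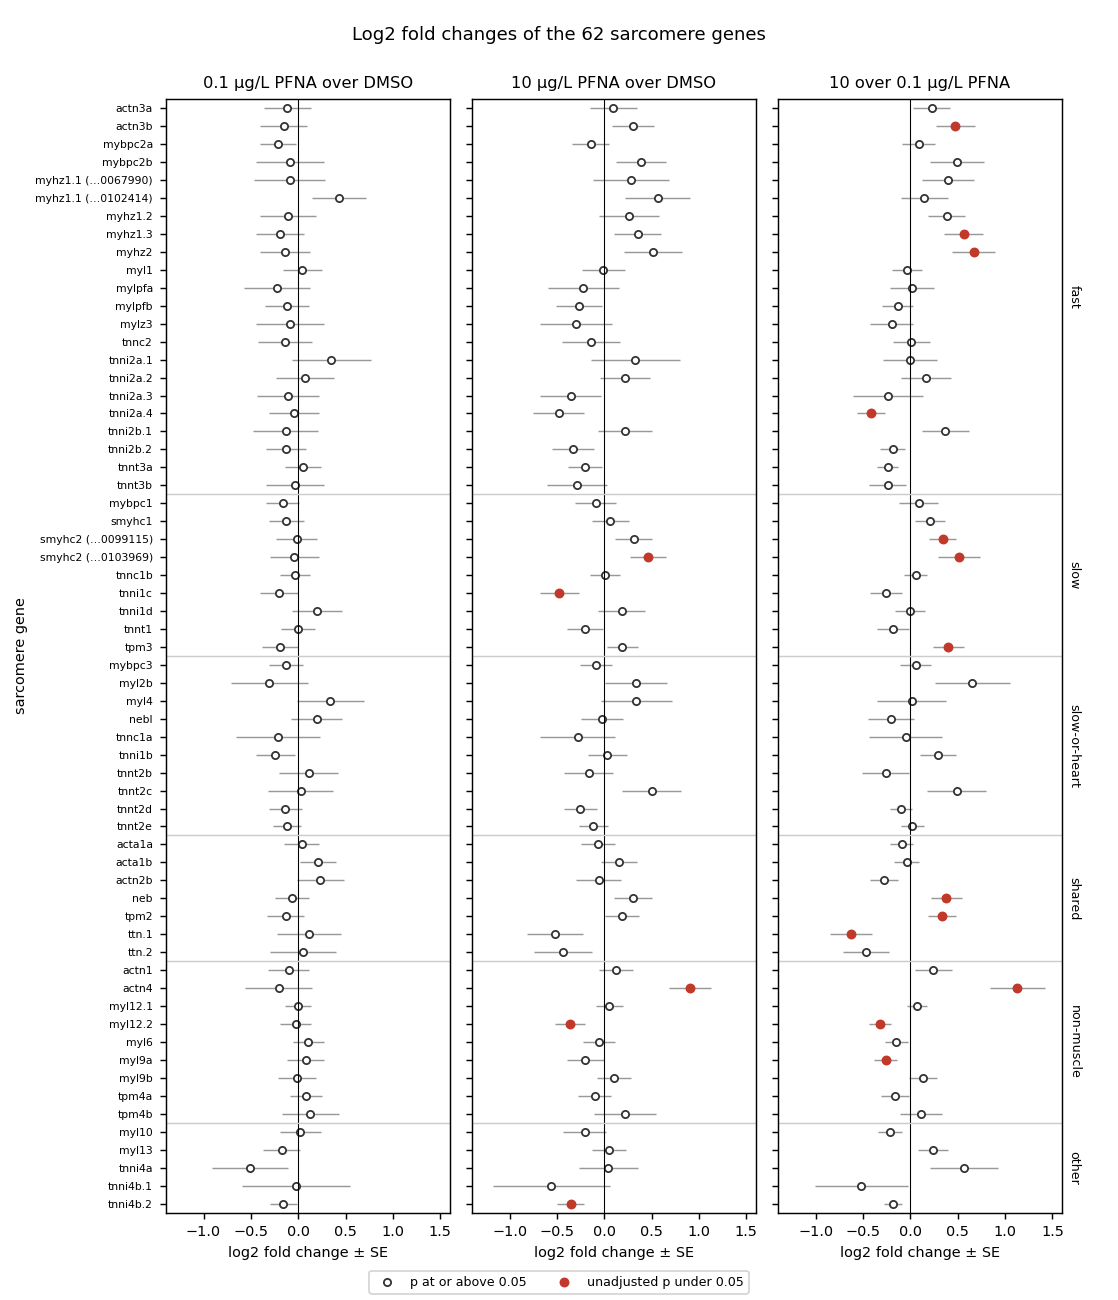
Points give the log2 fold change of each of the 62 genes with its standard error from limma, in a panel for each comparison, and rows are grouped by class. Red points have an unadjusted p under 0.05. There are none at 0.1 µg/L, 5 at 10 µg/L and 13 between the concentrations, and actn4 has the largest value in the middle and right panels.

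Between the 2 concentrations the counts were larger, and so was the background. At 10 µg/L, 13 of the 62 genes (21.0%) differed from 0.1 µg/L at an unadjusted p under 0.05 by limma, beside 25.7% of the 18965 genes tested. Of the 13, 9 were higher and 4 lower, beside 14.2% of all genes higher and 11.5% lower. With the non-muscle forms left out, 10 of 53 genes (18.9%) were called. No gene of any kind passed adjustment by limma or edgeR (9 sarcomere genes at an unadjusted p under 0.05, beside 24.8% of all genes). DESeq2 gave 12 at an unadjusted p under 0.05, beside 23.4% of all genes, and 5 at an adjusted p under 0.05, beside 9.37% of the 18017 genes that it adjusted. The median log2 fold change was 0.02, beside 0.00 over all genes. With quantile normalization 13 genes were again called, 12 higher and 1 lower in place of 9 and 4, and 10 of them were shared. Of all genes tested, 4832 were called in that setting, beside 4868 without it. The libraries of both groups did not overlap for 11 genes (17.7%), 3 higher and 8 lower, beside 28.7% of all genes tested. Since each concentration was also set against the same 3 DMSO libraries, the comparisons are not independent.

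The count changed with single libraries. It was 25 without 0.1 µg/L replicate 2, of which 16 passed adjustment by limma, but 1 without 0.1 µg/L replicate 3, 3 without 0.1 µg/L replicate 1 and 5 without 10 µg/L replicate 3. Of the 25 genes, 12 were among the 13 called with all libraries. In the same setting 7423 of the 18965 genes tested were called and 5128 passed adjustment. The replicate left out there stood with the 10 µg/L libraries on component 1. All genes called were 2880 without 0.1 µg/L replicate 3, 3048 without 0.1 µg/L replicate 1 and 3605 without 10 µg/L replicate 3. Without 0.1 µg/L replicate 2, log2 fold changes with an adjusted p under 0.05 by limma were 1.5 for actn4, 0.81 for myhz2, 0.73 for myhz1.3, 0.71 for actn3b, 0.59 for tpm3, 0.49 for tpm2 and 0.49 for neb. Both smyhc2 IDs also passed, with 0.49 for ENSDARG00000099115 and 0.79 for ENSDARG00000103969. The other genes that passed and were higher were myl2b (1.05), mybpc2b (0.87), tnni2b.1 (0.64) and myl13 (0.40). Those that passed and were lower were ttn.1 (-0.89), ttn.2 (-0.75) and myl12.2 (-0.36). The value of tnni2a.4 was -0.43 and did not pass (adjusted p = 0.0657 by limma).

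Fast myosin heavy chains, the motor proteins of fast fibres, were all fitted higher at 10 µg/L. The 5 gene IDs had log2 fold changes of 0.15 to 0.67 against 0.1 µg/L and of 0.26 to 0.56 against DMSO. In the comparison with 0.1 µg/L, 2 of them reached an unadjusted p under 0.05 by limma, and in that with DMSO none did. These counts depended on the setting. Against DMSO, all 5 did with quantile normalization (0.44 to 0.83) and 1, myhz2, with DESeq2 (0.52, unadjusted p = 0.0353). With a covariate for the first index the 5 values were 0.64 to 1.17. That setting leaves DMSO replicate 3 as the only control sharing its index with the exposed libraries. This library was the lowest of the DMSO group for all 5 genes. Without DMSO replicate 3 none reached an unadjusted p under 0.05 by limma, and the 5 values were 0.0048 to 0.30. Against 0.1 µg/L, 3 did with quantile normalization and 4 with DESeq2. The 5 values were positive in each of these settings, in both comparisons, but omission of 10 µg/L replicate 1 is not among them. For myhz1.1 (ENSDARG00000102414) the normalized counts were 3828, 1822 and 2010 at 10 µg/L, against 1943, 2603 and 2042 at 0.1 µg/L. Only 10 µg/L replicate 1 lay above the 0.1 µg/L libraries of this gene, so its positive value rested on that library. The gene myhz2 had 74999, 43322 and 53249 normalized counts at 10 µg/L, against 31089.5, 42693 and 32436 at 0.1 µg/L. The groups did not overlap, but 10 µg/L replicate 2 and 0.1 µg/L replicate 2 were almost level, and 10 µg/L replicate 1 was far above the rest. Its log2 fold change was 0.67 ± 0.22 SE (unadjusted p = 0.0138 and adjusted p = 0.11 by limma, adjusted p = 0.0175 by DESeq2). In DMSO it had 46648, 42944 and 28858, which overlaps both groups. Its call by limma against 0.1 µg/L was lost without 0.1 µg/L replicate 3.

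Another gene of the family, myhz1.3, had 44276, 31426 and 37389 at 10 µg/L, against 19706, 31754 and 25816 at 0.1 µg/L. Here 0.1 µg/L replicate 2 overlapped the 10 µg/L libraries. The log2 fold change was 0.56 ± 0.20 SE (unadjusted p = 0.0199 by limma, adjusted p = 0.0492 by DESeq2). This limma call was lost without 10 µg/L replicate 1, 0.1 µg/L replicate 1 or 0.1 µg/L replicate 3. The sarcomere gene with the most counts, myhz1.1 (ENSDARG00000067990), had 224153, 206417 and 147417 normalized counts in DMSO, 137086, 216252 and 188576 at 0.1 µg/L and 268861, 192502 and 244954 at 10 µg/L. Its libraries overlapped in all comparisons, and its log2 fold change was 0.39 ± 0.28 SE against 0.1 µg/L and 0.29 ± 0.40 SE against DMSO. The 5 genes share a family name and were counted by unique reads, and how far shared sequence ties their values was not tested.

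The fast light chains and troponins were not all fitted higher. All 4 fast light chains (mylpfa, mylpfb, mylz3 and myl1) were fitted lower than DMSO at 10 µg/L, by 0.01 to 0.30 on the log2 scale, and 3 of them lower than at 0.1 µg/L, none at an unadjusted p under 0.05 by limma. With quantile normalization this direction turned, with 3 of the 4 higher in both comparisons and myl1 called against DMSO (0.28, unadjusted p = 0.043 by limma). Of the 9 fast troponins, 6 were fitted lower and 3 higher in either comparison. Of both families, tnni2a.4 alone reached an unadjusted p under 0.05 by limma with all libraries, and it did so against 0.1 µg/L. Without DMSO replicate 3, tnnt3a, a fast troponin T, was also called against DMSO (-0.37, unadjusted p = 0.0334 by limma), beside 5269 of 19610 genes. Without 0.1 µg/L replicate 2, tnni2b.1, a fast troponin I, was called higher against 0.1 µg/L (0.64, adjusted p = 0.0268 by limma). In that setting tnnt3a was called lower (-0.29, unadjusted p = 0.0207 by limma), and 7423 of 18965 genes were called. The fast troponin I gene tnni2a.4 had 35445, 29952 and 29206 normalized counts at 10 µg/L, against 42953, 41373 and 41579 at 0.1 µg/L. All 3 libraries at 10 µg/L were lower, and they were also below the DMSO libraries, which had 59942, 36038 and 38139. The log2 fold change against 0.1 µg/L was -0.42 ± 0.15 SE (unadjusted p = 0.0188 by limma, adjusted p = 0.0205 by DESeq2), and against DMSO it was -0.48 ± 0.27 SE (unadjusted p = 0.103 by limma, 0.0213 by DESeq2). With quantile normalization the difference from 0.1 µg/L was -0.04, and the call was lost. It was also lost by limma without 10 µg/L replicate 2 or 3 and without 0.1 µg/L replicate 1 or 3.

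**Figure D3:**
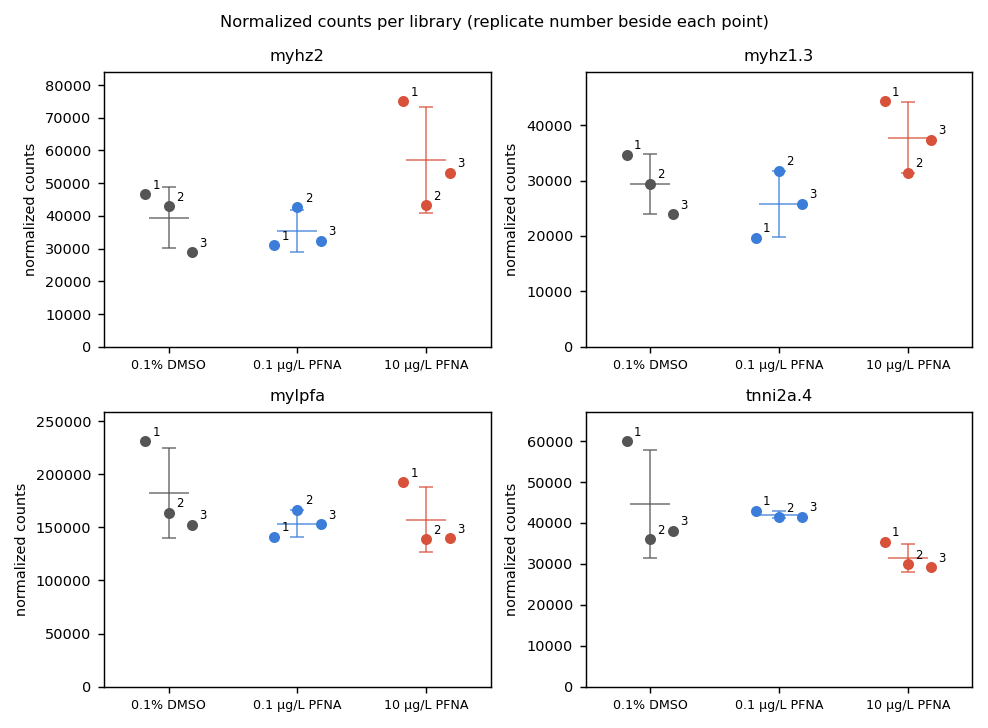
Normalized counts of 4 fast-fibre genes are shown per library, with the replicate number beside each point and the group mean ± SD as a bar with whiskers (n = 3). The myosin heavy chains myhz2 and myhz1.3 have their highest values at 10 µg/L, in replicate 1, whereas mylpfa and tnni2a.4 have theirs in DMSO replicate 1.

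As a ratio, which needs no scaling between libraries, summed fast heavy chains over summed fast light chains came to 0.708, 0.941 and 0.686 in DMSO, 0.645, 0.901 and 0.845 at 0.1 µg/L and 1.13, 0.998 and 1.32 at 10 µg/L. All 3 libraries at 10 µg/L were above the other 6, with 10 µg/L replicate 2 and DMSO replicate 2 nearest to each other. The pair of families was chosen after the values were seen, so this is a description with no test.

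Titin values spread widely among libraries of a group. For ttn.1 the normalized counts were 11799, 10817 and 5211 in DMSO, 12673, 6509 and 10170.5 at 0.1 µg/L and 7414, 5753 and 5377 at 10 µg/L. DMSO replicate 3 and 0.1 µg/L replicate 2 were within or below the range of the 10 µg/L libraries, and the other 4 were above it. The neighbouring titin gene ttn.2 had 36256, 34791 and 17346 in DMSO, 37865, 19476 and 32660.2 at 0.1 µg/L and 25612, 18746 and 19005 at 10 µg/L. The same libraries were low. Against DMSO the log2 fold change at 10 µg/L was -0.52 ± 0.29 SE for ttn.1 (unadjusted p = 0.105) and -0.43 ± 0.31 SE for ttn.2 (unadjusted p = 0.189, both by limma). At 0.1 µg/L it was 0.12 ± 0.34 SE for ttn.1 and 0.05 ± 0.35 SE for ttn.2.

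These titin values depended on DMSO replicate 3. Without DMSO replicate 3, 2186 of the 19610 genes tested passed adjustment by limma, beside 0 with all libraries. In that setting the log2 fold change at 10 µg/L was -0.90 for ttn.1 (adjusted p = 0.0108 by limma) and -0.78 for ttn.2 (adjusted p = 0.0454). When the first index was added as covariate, and so with DMSO replicate 3 as the control, the sign turned, to 0.23 for ttn.1 and 0.26 for ttn.2, neither at an unadjusted p under 0.05. Against 0.1 µg/L, the log2 fold change of ttn.1 at 10 µg/L was -0.62 ± 0.22 SE (unadjusted p = 0.0189 by limma, adjusted p = 0.0375 by DESeq2) and that of ttn.2 was -0.47 ± 0.24 SE (unadjusted p = 0.081 by limma). Without 0.1 µg/L replicate 2, 5128 of the 18965 genes tested passed adjustment by limma. In that setting the titin values were -0.89 and -0.75, both with an adjusted p under 0.05 by limma (0.00126 and 0.00671). Quantile normalization moved them the other way, to -0.46 for ttn.1 (unadjusted p = 0.0323 by limma) and -0.065 for ttn.2 (unadjusted p = 0.719 by limma). Without 0.1 µg/L replicate 1 they were -0.41 for ttn.1 and -0.27 for ttn.2. The call of ttn.1 was lost in that setting, and also without 0.1 µg/L replicate 3, 10 µg/L replicate 2 or 10 µg/L replicate 3.

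Neuron markers were also low in these libraries. The summed normalized counts of the 9 neuron markers, among them elavl3, snap25a and gap43, were 57497, 53069.5 and 34949 in DMSO, 60269.6, 44660.2 and 55762 at 0.1 µg/L and 41291, 43035 and 41784 at 10 µg/L. Of these 9 markers, 6 were lower at 10 than at 0.1 µg/L at an unadjusted p under 0.05 by limma, beside 11.5% of all genes, and none was at 0 in any library. The part of this difference, and of component 1, in the titin values was not tested.

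Nebulin differed in the other direction. The gene neb had 9218, 7069 and 7510.2 normalized counts in DMSO, 6621, 8730.0 and 7349 at 0.1 µg/L and 12212, 8389.7 and 9116 at 10 µg/L. The highest library was 10 µg/L replicate 1, and the groups overlapped in both comparisons. Its log2 fold change was 0.38 ± 0.16 SE against 0.1 µg/L (unadjusted p = 0.0429) and 0.30 ± 0.20 SE against DMSO (unadjusted p = 0.166, both by limma). Without 10 µg/L replicate 1 the value against 0.1 µg/L was 0.22 (unadjusted p = 0.158 by limma), and the call was also lost without 10 µg/L replicate 3, 0.1 µg/L replicate 1 or 0.1 µg/L replicate 3. The giant genes thus did not behave as a class. Their median log2 fold change was -0.43 at 10 µg/L against DMSO, beside -0.14 for the 27 small genes (light chains, troponins and tropomyosins of striated fibres), with ttn.1 and ttn.2 negative and neb positive. The giant median was -0.07 with quantile normalization, and without single libraries it ran from -0.78 (without DMSO replicate 3) to -0.24 (without DMSO replicate 1). Against 0.1 µg/L the medians were -0.47 for the 3 giant and -0.01 for the 27 small genes, and at 0.1 µg/L against DMSO they were 0.05 and -0.11. Over single-library omissions, the giant minus small difference lay between -0.83 and -0.21 for 10 against 0.1 µg/L. For 0.1 µg/L against DMSO it lay between -0.14 and 0.48.

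The ratio of summed titin to neb counts was 5.21, 6.45 and 3.00 in DMSO, 7.63, 2.98 and 5.83 at 0.1 µg/L and 2.70, 2.92 and 2.67 at 10 µg/L. The libraries at 10 µg/L were the lowest 3 of 9, but 0.1 µg/L replicate 2 and DMSO replicate 3 lay just above them, so the groups were separated only narrowly. This ratio was also chosen after the values were seen and was not tested.

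**Figure D4:**
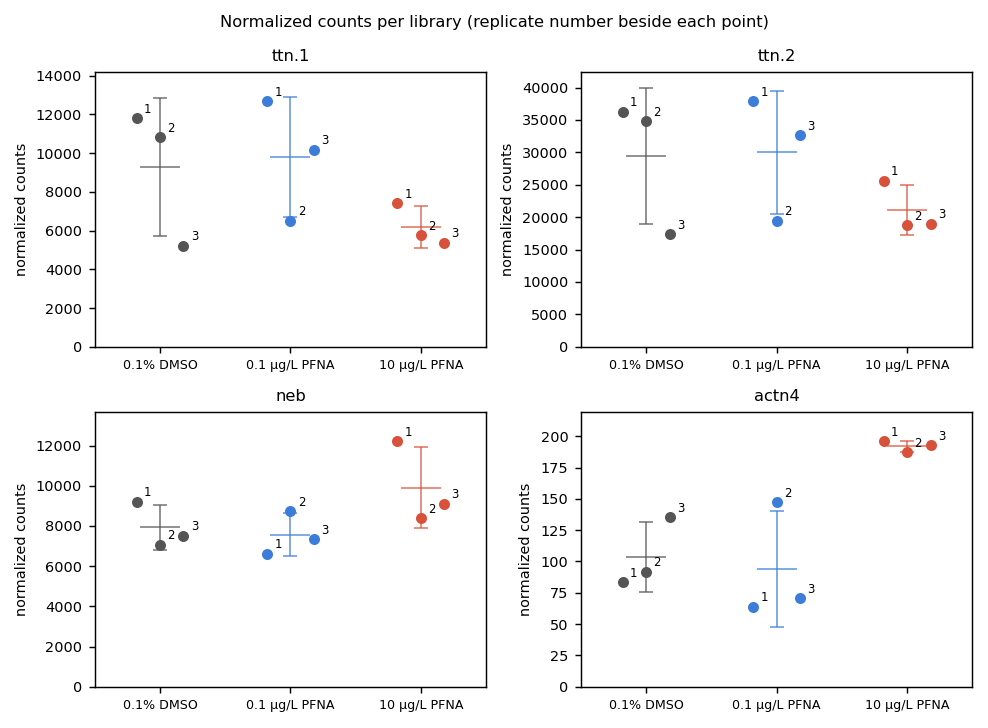
Normalized counts of ttn.1, ttn.2, neb and actn4 are shown per library, with the replicate number beside each point and the group mean ± SD as a bar with whiskers (n = 3). Both titin genes are low in DMSO replicate 3 and 0.1 µg/L replicate 2 as well as at 10 µg/L, while actn4 is higher at 10 µg/L than in any other library.

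**Figure D5:**
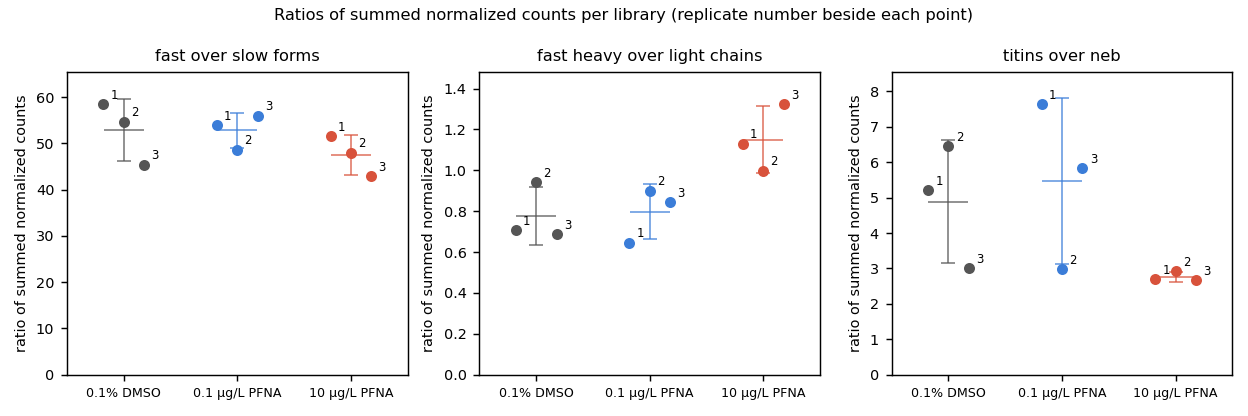
Ratios of summed normalized counts are shown per library for fast over slow forms, fast myosin heavy over fast light chains, and both titin genes over neb, with the group mean ± SD (n = 3). The groups overlap in the left panel, the 3 libraries at 10 µg/L are highest in the middle panel, and they are lowest in the right panel with DMSO replicate 3 and 0.1 µg/L replicate 2 just above them.

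Medians of fast and slow forms lay close together in every comparison. At 10 µg/L against DMSO their medians were 0.04 for fast and 0.06 for slow forms on the log2 scale, against 0.1 µg/L they were 0.05 and 0.09, and at 0.1 µg/L against DMSO they were -0.11 and -0.04. The difference of the medians, fast minus slow, was -0.02 at 10 µg/L against DMSO, but -0.21 without the myhz copies, which were all fitted higher. Within the slow class the 3 smyhc IDs were all fitted higher for 10 µg/L in both of its comparisons, and the troponins tnni1c and tnnt1 lower in both. The main slow heavy chain smyhc1 averaged 10246 ± 1626 normalized counts at 10 µg/L, a level within 1 SD of its DMSO mean. Slow myosins and fast myosins were thus both fitted higher, at a median of 0.31 for the 3 slow and 0.35 for the 5 fast gene IDs against DMSO, while 6 of the 9 fast troponins were fitted lower (5 with quantile normalization).

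Tropomyosins, which lie along the thin filament and gate its contact with myosin, include tpm2 and tpm3, both fitted higher at 10 than at 0.1 µg/L. For tpm3, a slow-fibre tropomyosin, counts were 6053, 4725 and 4783 at 10 µg/L, against 3423, 5043 and 3437 at 0.1 µg/L (log2 fold change 0.40 ± 0.17 SE, unadjusted p = 0.0378 by limma). The tropomyosin gene tpm2 had 5692, 4699 and 4889.8 at 10 µg/L, against 3603, 4983 and 3623 at 0.1 µg/L (log2 fold change 0.34 ± 0.15 SE, unadjusted p = 0.045 by limma). In both genes 0.1 µg/L replicate 2 lay within the range of the 10 µg/L libraries and the other 0.1 µg/L libraries below it. The fast alpha-actinin actn3b followed the same order of libraries, with 7705, 5491 and 5501 at 10 µg/L, against 3609, 6154 and 3892 at 0.1 µg/L (log2 fold change 0.48 ± 0.21 SE, unadjusted p = 0.0441 by limma). None of these calls held with edgeR (unadjusted p = 0.0518 for tpm3, 0.0615 for tpm2 and 0.0609 for actn3b). That of tpm2 was also lost with DESeq2 (unadjusted p = 0.0534), and those of tpm2 and actn3b with the replicate block. Each was lost without 10 µg/L replicate 1, 0.1 µg/L replicate 1 or 0.1 µg/L replicate 3. Skeletal actin gave no call, with acta1b at 8770.0 ± 813 at 10 µg/L and 9047 ± 1143 at 0.1 µg/L (SD, n = 3 each).

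Both smyhc2 IDs were also fitted higher at 10 than at 0.1 µg/L. For ENSDARG00000099115 the log2 fold change was 0.34 ± 0.14 SE (unadjusted p = 0.0366), from 2201, 1900.1 and 2040.1 normalized counts at 10 µg/L and 1367, 1982 and 1546 at 0.1 µg/L. For ENSDARG00000103969 it was 0.52 ± 0.22 SE (unadjusted p = 0.0415, both by limma), with 262, 462 and 256 at 0.1 µg/L. In either case 0.1 µg/L replicate 2 overlapped the 10 µg/L libraries and replicates 1 and 3 lay below them. Both calls were lost with DESeq2 (unadjusted p = 0.0516 for ENSDARG00000099115 and 0.057 for ENSDARG00000103969), edgeR (0.0511 and 0.0637) and the replicate block. They were also lost without 10 µg/L replicate 1 or 3 and without 0.1 µg/L replicate 1 or 3.

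Non-muscle forms differed between the concentrations as well. The log2 fold change of actn4 at 10 against 0.1 µg/L was 1.13 ± 0.29 SE (unadjusted p = 0.00295 by limma, adjusted p = 0.0204 by DESeq2), from 196, 187 and 193 normalized counts at 10 µg/L and 63.8, 147 and 70.7 at 0.1 µg/L. The groups did not overlap, and 0.1 µg/L replicate 2 was the nearest. The light chain gene myl12.2 was lower, with a log2 fold change of -0.32 ± 0.12 SE (unadjusted p = 0.0236 by limma), with 929, 914 and 1069 at 0.1 µg/L, all above the 10 µg/L libraries. The smooth muscle light chain myl9a, named after its values were seen, had 397, 399 and 379.6 at 10 µg/L, against 489, 476 and 446 at 0.1 µg/L (log2 fold change -0.26 ± 0.12 SE, unadjusted p = 0.0482 by limma). Its libraries were also fully separated. By contrast myl9b averaged 994 ± 101 at 10 µg/L and 914 ± 174 at 0.1 µg/L, and tpm4a 802 ± 134 at 10 µg/L and 898 ± 119 at 0.1 µg/L, differences within the spread of the libraries.

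With all libraries, forms used by slow fibres or heart gave no call by limma in any comparison. Without 0.1 µg/L replicate 2, myl2b, a regulatory light chain, was called at 10 against 0.1 µg/L (1.05, adjusted p = 0.0363 by limma), as was the troponin T gene tnnt2b (-0.53, unadjusted p = 0.021 by limma). Without DMSO replicate 3, the troponin T gene tnnt2d was called at 10 µg/L against DMSO (-0.36, unadjusted p = 0.0484 by limma). In these settings 7423 of 18965 and 5269 of 19610 genes were called, in that order. The lowest count behind myl2b was 25 reads. The summed normalized counts of the 5 heart markers detected were 591, 285 and 775 in DMSO, 394, 631 and 502 at 0.1 µg/L and 755, 500 and 444 at 10 µg/L, so the groups overlapped. Among those with the most counts were the troponin T genes tnnt2e, at 2334 ± 298 normalized counts at 10 µg/L and 2502 ± 251 in DMSO, and tnnt2d, at 2026 ± 192 at 10 µg/L and 2419 ± 498 in DMSO. The myosin-binding protein gene mybpc3 averaged 814 ± 138 at 10 µg/L and 855 ± 110.1 in DMSO, while the troponin I gene tnni1b averaged 105 ± 5.47 at 0.1 µg/L and 125 ± 13.5 in DMSO. For tnni1b all 0.1 µg/L libraries (98.9, 107 and 109) were below all DMSO libraries (126, 139 and 112), with a log2 fold change of -0.24 ± 0.21 SE (unadjusted p = 0.266 by limma).

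Other genes of muscle, listed by function and outside the symbol rule, gave counts from below to above the background. Of 79 gene IDs tested, 3 had an unadjusted p under 0.05 at 0.1 µg/L against DMSO, all lower (3.80%, beside 1.57% of all genes). At 10 µg/L against DMSO there were 7 of 80 (8.75%, beside 13.1% of all genes), 2 higher and 5 lower, and between the concentrations 18 of 79 (22.8%, beside 25.7%), 13 higher and 5 lower. None passed adjustment by limma. The excitation and calcium list (channels, calcium stores and pumps) had a median log2 fold change of 0.40 at 10 against 0.1 µg/L and 0.09 against DMSO. Its leading gene casq1a, a calcium store protein of the sarcoplasmic reticulum, was higher by 0.98 against 0.1 µg/L, and cacnb1, a subunit of the muscle calcium channel, by 0.96 against 0.1 µg/L and 0.80 against DMSO. Of the sarcomere and Z-disc list, obscnb, which encodes the giant protein obscurin, was higher by 1.17 against 0.1 µg/L, and myom1b, an M-band crosslinker, by 1.37. Counts of myom1b were 153, 139 and 664 in DMSO, 168, 380 and 113 at 0.1 µg/L and 666, 465 and 410 at 10 µg/L. For obscnb they were 117, 57.6 and 191 in DMSO, 78.1, 133 and 55.9 at 0.1 µg/L and 209, 183 and 176 at 10 µg/L. In both genes DMSO replicate 3 thus lay within the range of the 10 µg/L libraries. The only call of this list at 10 µg/L against DMSO was tcap, at -0.89. It was also called at 0.1 µg/L against DMSO, at -0.92. Between the concentrations its value was 0.04 (unadjusted p = 0.914 by limma), and its libraries overlapped in each comparison. Among genes for myosin folding, the value of smyd1a was -0.49 against DMSO and -0.32 against 0.1 µg/L, and that of the chaperone gene hsp90aa1.2 was -0.63 against DMSO and -0.83 against 0.1 µg/L. All 5 genes of this list were fitted lower at 10 µg/L than in DMSO (median -0.29). Between the concentrations, however, 3 of the 5 were fitted higher, with a median of 0.10. The ubiquitin ligase gene trim63b, which acts on sarcomere proteins in mammals, was at -0.66 against DMSO. All fold changes given here for single genes are on the log2 scale. All but that of tcap between the concentrations have an unadjusted p under 0.05 by limma. The genes were named after their values were seen.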

How the data were processed

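Poly(A) mRNA purified from total RNA of 9 pools of larvae was sequenced as directional libraries, and the group and replicate of each library were taken from the sample titles. Per the study's methods and the submitters' processing notes, the authors trimmed reads with Trimmomatic 0.36, aligned them to the genome build GRCz10 with STAR 2.5.2b and counted unique reads per gene with featureCounts of Subread 1.5.2. The deposited per-library values are a signal, the read count divided by a DESeq2 size factor, in a separate table for each concentration. The deposited log2 fold change and p-value columns hold the authors' own comparisons and were not used. All deposited values were whole multiples of the value of 1 read, within 0.01 read, for 100% of the values, so whole reads were recovered and the 9 libraries were scaled together with median-of-ratios size factors for all values given per library. No column was left unmapped. Depth, 14491289 to 23963715 reads per library, sets the counting error, and the spread between 3 pools sets the error of every comparison. The p-values measure the spread between pools of separate beakers. Of the 9 libraries, 7 shared the first sequencing index, namely the exposed libraries and DMSO replicate 3. DMSO replicates 1 and 2 did not share it. The spread of the DMSO group may thus also hold an index difference, and exposure and index cannot be fully told apart in the comparisons with DMSO.

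For each comparison, genes whose mean reached 10 normalized counts were fitted across the whole table with limma 3.58.1 (R 4.3.3) on log2(value + 1), with only the 6 libraries compared, and p-values were adjusted by Benjamini-Hochberg over all genes tested. Fold changes are on this scale and understate those of low genes. Both comparisons with DMSO were fitted in their own deposited table, and the concentrations were compared on reads recovered from both tables. A call here is an unadjusted p under 0.05, since no gene passed adjustment by limma in the fits of all 6 libraries without added terms. With DESeq2, 267 genes passed at 10 µg/L against DMSO and 1689 between the concentrations. Alternatives were pseudocounts of 0.5 and 5, no minimum and a minimum of 50, TMM scaling, quantile normalization, DESeq2 1.42.0 and edgeR 4.0.16 on recovered reads, a block for the replicate number, a covariate for the first index, omission of myhz1.1, myhz1.2, myhz1.3 and myhz2, and omission of each library. The fits were tested on simulated data. Summaries and figures were made in Python 3.11.15 (numpy 2.4.6, pandas 2.3.3, matplotlib 3.10.9).

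The genes, classes and lists were chosen with earlier results of these data known. Named with values were the 4 genes of each class with the highest DMSO mean, the ttn and neb genes, up to 12 genes per comparison with an unadjusted p under 0.05, and genes passing adjustment in a count test. Genes named beyond these were chosen after their values were seen. Medians and counts of gene groups are descriptions. Levels were not compared between genes, as no transcript lengths were used, and ratios are of summed counts. No sequence or coordinate is given, since no reference sequence of the build was used here. In RefSeq's GRCz12tu annotation, used for names and order only, ttn.1 and ttn.2, the smyhc genes, and tnni2a.1 to tnni2a.4 lie beside each other.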

Additional observations from a re-analysis of the deposited data

Results flagged for a closer look

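Of the 62 genes, 5 differed between the concentrations by a test of the difference itself, 10 against 0.1 µg/L with DESeq2 on recovered reads. They include actn4, a non-muscle form. These are 5 of 62, beside 9.37% of all genes that DESeq2 adjusted, so the count lies below the background and is no result about the gene set. Its log2 fold changes were 1.02 for actn4, 0.69 for myhz2 and 0.55 for myhz1.3, which were higher at 10 µg/L, and -0.66 for ttn.1 and -0.41 for tnni2a.4, which were lower. With all libraries, none of these genes passed adjustment by limma or edgeR in the same comparison, or by any of the 3 tools in either comparison with DMSO. Against 0.1 µg/L, the limma calls of myhz2, myhz1.3, ttn.1 and tnni2a.4 were each lost on omission of some single library. Without 0.1 µg/L replicate 2, actn4, myhz2, myhz1.3 and ttn.1 passed by limma against 0.1 µg/L. Without DMSO replicate 3, actn4 and ttn.1 passed by limma at 10 µg/L against DMSO. In these settings 5128 of 18965 and 2186 of 19610 genes passed, in that order, beside 0 with all libraries. Both libraries omitted stood with the 10 µg/L libraries on component 1, so passing there is no separate support. Groups of 3 libraries are too small for a test of single outlying libraries.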

How the results depend on the processing

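At 0.1 µg/L against DMSO, the count of sarcomere genes with an unadjusted p under 0.05 by limma was 0. It became 1 without DMSO replicate 3 and 0.1 µg/L replicate 2 (chosen after seeing the data). When each library was left out, it was 0 to 1. Adding a term for the first index left DMSO replicate 3 as the only control sharing its index with the exposed libraries. Values from that fit thus rest on 1 control, and no count is drawn from it. Among them, log2 fold changes picked after they were seen were 1.02 for myhz1.1 (ENSDARG00000102414) and 0.85 for ttn.1. The fast minus slow difference of medians was 0.074 with the covariate, in place of -0.063. It was -0.11 to 0.057 without single libraries or without both DMSO replicate 3 and 0.1 µg/L replicate 2. At 10 µg/L against DMSO, the count of 5 became 14 with quantile normalization, 11 with the replicate block and 1 to 9 without single libraries. Of the 19610 genes tested, 2764 were called with quantile normalization, 2908 with the block and 1301 to 5269 without single libraries. The fast minus slow difference, -0.02, was -0.21 without myhz1.1, myhz1.2, myhz1.3 and myhz2 and -0.19 to 0.11 without single libraries, and the giant minus small difference, -0.29, was 0.31 with the first index as a covariate. Between the concentrations, the count of 13 became 8 with the replicate block and 1 to 25 without single libraries. Of the 18965 genes tested, 4640 were called with the block and 2880 to 7423 without single libraries. With the block 740 genes passed adjustment by limma, none of them a sarcomere gene. Here the giant minus small difference, -0.46, was -0.056 with quantile normalization, and the fast minus slow difference, -0.04, was -0.28 to 0.10 without single libraries. For the named genes, 1392 values were recomputed over 87 gene and comparison pairs, of which 79 were no longer past the threshold with the same direction, 20 moved by more than the replicate spread and 0 called values changed sign. Only pairs called with all libraries could be among the 79, and only the uncalled pairs among the 20. Neither number is thus a share of all 1392 values, and most pairs were not called to begin with. The correlation of deviations between libraries with the same replicate number, taken from the sample titles, was between -0.36 and 0.28. With 3 libraries per group this cannot exclude a pairing, and no other pairing was examined. The causes of these shifts were not tested.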

Other observations

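The median fold between the highest and the lowest library of a group was 1.5 in DMSO, 1.3 at 0.1 µg/L and 1.3 at 10 µg/L for the 62 sarcomere genes, beside 1.5 in DMSO, 1.4 at 0.1 µg/L and 1.3 at 10 µg/L for all genes. Of the 20 sarcomere genes that were highest in DMSO replicate 1, 8 were fast forms, and of the 21 that were highest in 10 µg/L replicate 1, 11 were. Liver markers also varied within groups, with summed normalized counts of 35512, 11807 and 38904 in DMSO, 16731, 27540 and 22843 at 0.1 µg/L and 36804, 27514 and 26098 at 10 µg/L. Their part in the sarcomere values was not tested.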
